A study of Mus musculus with 8 samples.

Results

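The genes described here are the spliceosome and splicing-factor genes whose symbols begin with Snrp, Sf3a, Sf3b, Srsf or Hnrnp. They were taken by prefix from the table of normalised gene values, and names containing -ps were to be dropped, of which there were 0. The rule gave 50 genes of the 12367 rows: 11 Snrp, 3 Sf3a, 6 Sf3b, 10 Srsf and 20 Hnrnp genes. The rule used names only and no measured value.

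RNA was sequenced from alveolar macrophages, the resident macrophages of the air spaces of the lung, in 8 libraries of 2 genotypes. The 4 KO libraries came from CD11c-Cre Tfam-fl/fl mice, in which Cre recombinase under CD11c control acts on floxed alleles of Tfam, the gene of a mitochondrial DNA-binding transcription factor. The 4 WT libraries came from Tfam-fl/fl mice, which carry the floxed alleles without Cre. Mice of both genotypes were untreated and 3 weeks old, and the cells were sorted as CD45+ F4/80+ CD11c+ live cells after enrichment for CD11c. Each library is a pool of 3 to 5 mice, male, female or both, so the spread between libraries is a spread between pools. There was no group with Cre and intact Tfam, so Cre and the loss of Tfam cannot be told apart, and the sort marker CD11c is the product of Itgax, the gene whose control elements drive the Cre.

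Pre-mRNA splicing is carried out by the spliceosome, which is built on each intron from small nuclear ribonucleoproteins (snRNPs). Every snRNP of the major spliceosome except U6 carries a ring of Sm proteins (Snrpb, Snrpd1, Snrpd2, Snrpd3, Snrpe, Snrpf and Snrpg), and the U1 and U2 particles that first mark an intron carry proteins of their own (Snrpa and Snrpc in U1, Snrpa1 and Snrpb2 in U2). The SF3A and SF3B complexes belong to the U2 particle and hold it at the branch site. SR proteins (Srsf genes) mostly bind exonic enhancers and recruit these particles, and hnRNP proteins (Hnrnp genes) coat nascent RNA and often act in the opposite sense, besides roles in mRNA stability and export. In macrophages such proteins are known to shape the splicing and decay of inflammatory mRNAs. Many SR and hnRNP genes control their own levels by alternative splicing of exons that send the mRNA to nonsense-mediated decay.

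The deposited values are read numbers normalised to the size of the library, called values below. The libraries held 20243772 to 30263201 reads in KO and 24776683 to 29161957 reads in WT over the rows of the table. Scaled by library size, 3 reads came to 0.09995 to 0.1525, leaving out the 0.5 that the values add to each read number. Every member had at least 211 reads in every library, and member values lay between 10.48 and 908.7. Tfam had values of 4.52, 5.08, 4.29 and 3.52 in KO and 26.1, 35.2, 30.3 and 29.7 in WT, a log2 fold change of -2.55 (SE 0.117, adjusted p = 1.02e-06 by limma), in the direction of the genotype labels. The first principal component of all genes separated the genotypes (63.8% of the variance). On the next component (12.8%) both libraries numbered 4 stood apart from the others, at -14.1 in KO and -25.6 in WT, against -4.9 or more in the other 6 libraries. Of 12 alveolar macrophage markers all were measured, with a summed value of 36600 to 42000 in KO and 35730 to 37760 in WT. Most of this sum was Chil3, which averaged 27810 in KO and 23530 in WT, so the sum says little about the other markers. Of the 12, 4 were lower and 2 higher in KO, as named below.

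The sequences before the start sites of the members are shown for a few genes because all members that passed the test were lower in KO, so that their promoters can be compared. RefSeq start sites (GRCm38.p6) were found for 44 of the 50 members. For each motif named here both strands of the 250 bases before the start were searched. The GC box (GGGCGG) was present in 32 of these 44 members (72.7%), against 32.9% of the promoters of all 27025 genes in the RefSeq table. The ETS-type motif CCGGAAG was present in 14 members (31.8%, against 7.05%) and CCAAT in 21 (47.7%, against 34.5%). The E2F-type motif TTCCCGC was present in 5 members (11.4%, against 3.84%) and the E-box CACGTG in 3 (6.82%, against 6.05%). Of the 11 members with a matched start that were lower in KO by the test given below, 9 held a GC box, 5 CCAAT, 4 the E2F-type motif, 3 the ETS-type motif and 0 the E-box. The 4 members with the E2F-type motif were Hnrnpa2b1, Hnrnpul1, Srsf1 and Srsf4. These matches are descriptions of letters and were not tested. The RefSeq genes include many that were not measured here, whereas all members were expressed. No comparison with the promoters of the measured genes alone was made. Below are stretches before the start of 4 lower members with a single start in the RefSeq table, in GRCm38.p6, 5′ to 3′ in the direction of transcription, with matches to these motifs on either strand in capitals. They lie at chr1:178337816-178337965 on the minus strand (Hnrnpu), at chr11:88047223-88047372 on the plus strand (Srsf1), at chr17:29032510-29032627 on the plus strand (Srsf3) and at chr12:4817458-4817543 on the plus strand (Sf3b6).
Hnrnpu: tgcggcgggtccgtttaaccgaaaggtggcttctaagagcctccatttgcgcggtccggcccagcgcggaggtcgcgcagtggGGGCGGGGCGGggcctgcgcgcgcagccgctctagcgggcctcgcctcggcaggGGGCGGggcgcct
Srsf1: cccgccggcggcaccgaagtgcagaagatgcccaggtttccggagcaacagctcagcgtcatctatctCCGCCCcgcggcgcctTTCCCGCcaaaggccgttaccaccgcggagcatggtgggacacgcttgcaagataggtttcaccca
Srsf3: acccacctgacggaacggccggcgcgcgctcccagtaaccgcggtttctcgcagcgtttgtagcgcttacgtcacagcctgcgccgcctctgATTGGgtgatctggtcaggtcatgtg
Sf3b6: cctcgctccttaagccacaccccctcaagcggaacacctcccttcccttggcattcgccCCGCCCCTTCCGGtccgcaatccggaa
The Hnrnpu stretch holds 3 GC boxes, 2 of which share a base. The Srsf1 stretch holds a GC box followed by the E2F-type motif, the Srsf3 stretch holds CCAAT on the minus strand, and the Sf3b6 stretch holds a GC box next to the ETS-type motif.

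A minority of the splicing-factor genes were lower in KO than in WT macrophages, and none passed the test as higher in KO. Of the 50 members, 12 were lower in KO and 0 were higher (limma on log2(value + 1) over 12163 genes, Benjamini-Hochberg adjusted p under 0.05), while 38 did not pass. At an unadjusted p under 0.05, 18 of the 50 members were lower, a larger share than the 24.4% of all genes. At that level 0 were higher, against 22.8% of all genes. With voom weights, at an adjusted p under 0.05, 12 members were lower and 0 higher. The share of all genes with those weights is not given here. Without them the lower members made up 24% of the set, against 20.0% of all genes tested, and the higher members 0%, against 18.7%. In either direction 24% of the members were called, against 38.7% of all genes. In this fit, which leaves out the replicate number, the share lower was near the background and the share higher was below it. With the replicate number as a block, described below, the share lower was 46%, against 24.3% of all genes. None of these differences from the background was tested. The fold changes were small: the members ranged from -0.65 to 0.22 on the log2 scale, and 1 of 50 (2%) reached 0.5 in size, against 19.3% of all genes. The members' median was -0.14 on the same scale, against -0.01 for all genes, and 43 members (86%) lay below 0, against 50.8% of all genes. Reads from the 50 genes together made up 0.838% ± 0.0135 of all reads in KO and 1.01% ± 0.0218 in WT (SD, n = 4 each). The 4 KO libraries lay between 0.82% and 0.8524% and the 4 WT libraries between 0.9858% and 1.032%, without overlap. These are shares of unscaled reads, whereas the values rest on a scaled library size. That size was below the read total in every KO library and above it in every WT library. The difference is therefore smaller on the scale of the values, and no such share was computed for other gene sets. In such bulk libraries fewer cells of a type and less RNA per cell cannot be told apart.

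**Figure D1:**
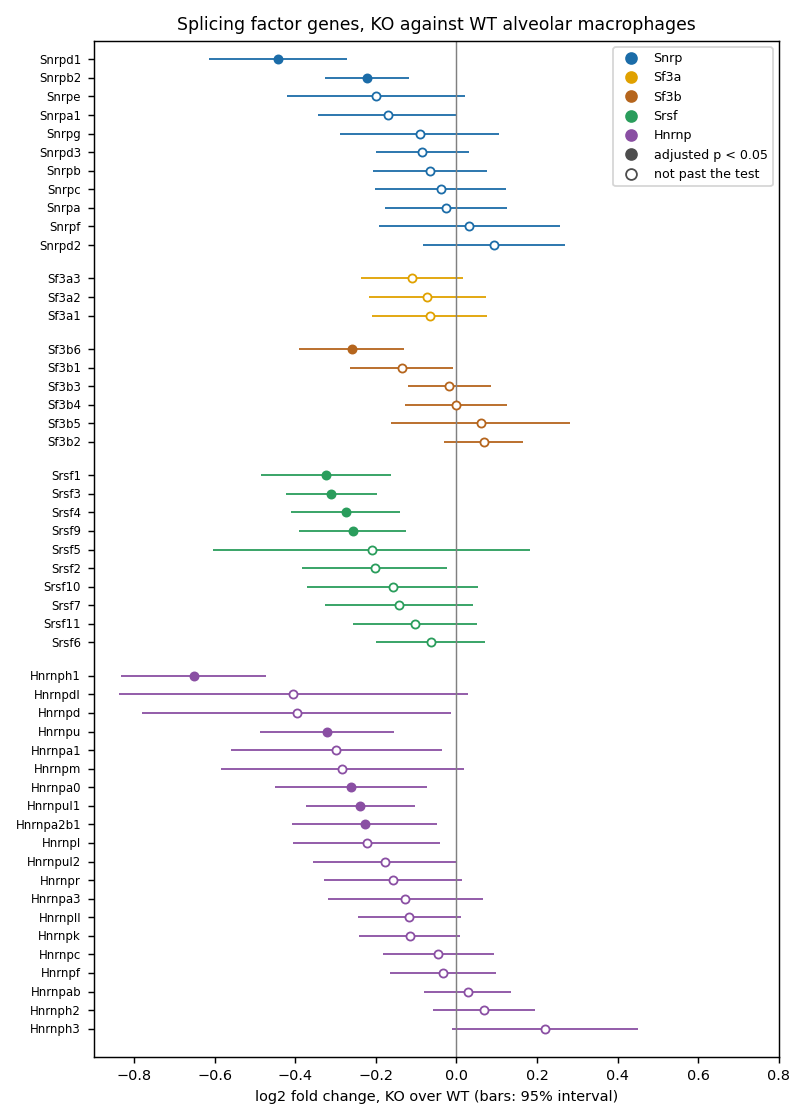
Log2 fold change of each of the 50 members, KO over WT, with its 95% interval, coloured by prefix and ordered within it; filled points passed the test (adjusted p under 0.05) and open points did not. All 12 filled points lie left of 0, and Hnrnph1 at -0.65 is farthest from it.

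The genotypes did not overlap for 11 members, all lower in KO, so that the lowest WT library lay above the highest KO library. Among all genes tested, 19.6% did not overlap with KO lower and 18.1% with KO higher, so 22% of members against 19.6% is near the background, while 0 members were in the other direction. Without WT 4 the genotypes did not overlap for 21 of the 50 members with KO lower, a larger share than the 23.5% of all genes. With KO higher it was 1 member, a smaller share than the 21.4% of all genes with that library left out. The SR protein and hnRNP genes lay lowest: the median log2 fold change was -0.21 for the 10 Srsf genes and -0.20 for the 20 Hnrnp genes, against -0.08 for the 11 Snrp genes, -0.07 for the 3 Sf3a genes and -0.01 for the 6 Sf3b genes. These medians are descriptions, and differences between the prefixes were not tested.

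**Figure D2:**
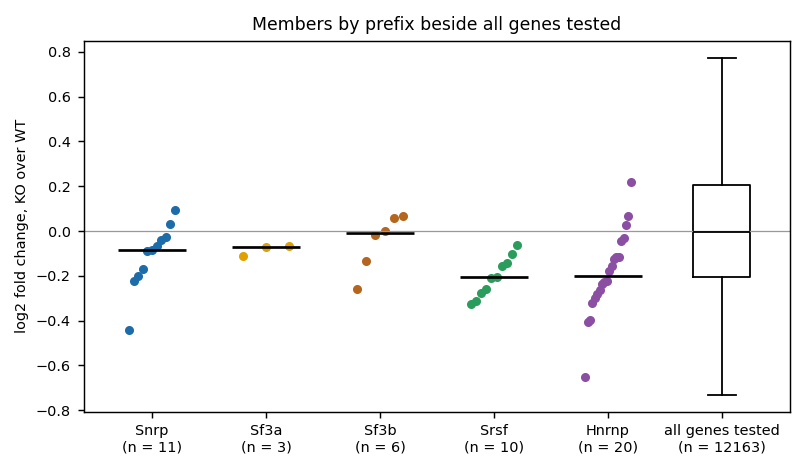
Log2 fold change (KO over WT, vertical axis) of each member by prefix, with the median as a bar, beside a box of all 12163 genes tested (quartiles and median, whiskers from the 5th to the 95th percentile). The members sit within the range of the whiskers, and all 10 Srsf genes lie below 0.

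Samples with the same replicate number in KO and WT deviated together from their genotype means over all genes (correlations of 0.286 to 0.431, against -0.374 to 0.0917 for other pairs). Over the members alone the correlations were -0.402 to 0.723, against -0.746 to 0.479 for other pairs. Not every same-numbered pair therefore deviated together in the members. A fit with this number as a block called 23 members lower in KO (46%, against 24.3% of all genes in that fit) and 1 higher (2%, against 22.4%), where the fit without it called 12 and 0. All 12 members called without the block remained called with it. The members gained with the block were Srsf2, Srsf5, Srsf10, Hnrnpa1, Hnrnpa3, Hnrnpd, Hnrnpdl, Hnrnpl, Hnrnpm, Hnrnpr and Hnrnpul2, all lower, and Hnrnph3, which was higher. Within the 4 same-numbered pairs, KO was lower than WT in all 4 for 28 of the 50 members, a larger share than the 30.7% of all genes. KO was higher in all 4 for Hnrnph3 alone, against 28.0% of all genes. Without both libraries numbered 4, 20 of the 50 members were lower, a larger share than the 21.1% of all genes. In that fit 1 was higher, a smaller share than 19.8%. Without WT 4 alone 18 of the 50 were lower, a larger share than the 19.3% of all genes, and 1 was higher, a smaller share than 18.2%. Below, the fit without the block is the one over all 8 libraries with equal weights.

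Among the Snrp genes 2 of 11 were lower in KO (18.2%, against 20.0% of all genes) and 9 did not pass. Snrpd1, which encodes the Sm protein D1 of the ring common to most snRNPs, had values of 45.1, 39.5, 43.5 and 46.4 in KO and 59.6, 65.3, 60.6 and 53.2 in WT. Every KO library lay below every WT library, and the difference was smallest between the libraries numbered 4. Snrpd1 averaged 43.6 ± 3.02 in KO and 59.7 ± 5.01 in WT (SD, n = 4 each), a log2 fold change of -0.44 (SE 0.0763, adjusted p = 0.00145 by limma), which leaves KO at 73.1% of the WT mean.

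The other lower Snrp gene was Snrpb2, whose product binds U2 snRNA together with that of Snrpa1 (chr2:143063039-143072853, plus strand). Its values were 62.5, 58.8, 61.4 and 62.9 in KO and 72.3, 73.1, 71 and 70.5 in WT, with no overlap and a narrow spread in both genotypes. The log2 fold change was -0.22 (SE 0.0468, adjusted p = 0.00449 by limma). Its partner Snrpa1 had 28.3, 27.5, 27.5 and 29.6 in KO and 28.1, 32.9, 31.4 and 35.6 in WT, which overlap, and did not pass over all 8 libraries (log2 fold change -0.17, adjusted p = 0.107 by limma), though it passed without WT 1.

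Apart from Snrpd1 no Sm ring gene passed over all 8 libraries with equal weights. Snrpe had -0.20, Snrpg -0.09, Snrpd3 -0.08, Snrpb -0.07, Snrpf 0.03 and Snrpd2 0.09 on the log2 fold change scale. Snrpe passed without both libraries numbered 4 (adjusted p = 0.0231 by limma, log2 fold change -0.30). The summed value of the 7 ring genes was 316.6 to 361.8 in KO and 342.5 to 399.7 in WT. Reads of Snrpf and Snrpd2 may be split with near-identical pseudogenes, which this sum leaves out. Gm13092, the copy of Snrpf, had 11.4 ± 0.924 in KO and 11.4 ± 0.725 in WT. Gm10120, the copy of Snrpd2, had 9.78 ± 0.724 in KO and 7.87 ± 1.64 in WT (SD, n = 4 each). The U1 proteins Snrpa, which binds a stem-loop of U1 snRNA, and Snrpc, which steadies its pairing with the 5′ splice site, lay close to 0 (-0.03 and -0.04). Their summed value was 53.5 to 58.5 in KO and 54.8 to 62.6 in WT.

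Of the 9 SF3A and SF3B genes 1 was lower in KO. The share was 16.7% of the 6 Sf3b genes and 0% of the 3 Sf3a genes, against 20.0% of all genes. Sf3b6 encodes a protein of the SF3B complex of the U2 particle (chr12:4817544-4827659, plus strand). It had values of 46.5, 43.6, 42 and 45.2 in KO and 56.5, 53.9, 52.9 and 50 in WT. All 4 KO values lay below the lowest WT value. The means were 44.3 ± 1.93 in KO and 53.3 ± 2.69 in WT (SD, n = 4 each), and the log2 fold change was -0.26 (SE 0.0585, adjusted p = 0.00629 by limma).

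Sf3b1, the scaffold of the complex and the target of several splicing inhibitors, had 386, 407, 366 and 364 in KO and 437, 413, 390 and 434 in WT. The genotypes overlapped, and the log2 fold change of -0.14 did not pass (adjusted p = 0.0881 by limma). It passed after quantile normalisation, which called 2 Sf3b genes lower. Sf3b2, Sf3b3, Sf3b4 and Sf3b5 lay between -0.02 and 0.07. The 3 Sf3a genes lay between -0.11 and -0.07 and did not pass. Sf3a3 showed no overlap by a narrow margin, with a highest KO value of 40.4 and a lowest WT value of 40.5, and had an adjusted p of 0.153 by limma.

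Of the 10 SR protein genes 4 were lower in KO (40%, against 20.0% of all genes). With the block 7 were lower (70%, against 24.3%). All 10 had a log2 fold change below 0, against 50.8% of all genes. Srsf1, the prototype SR protein (chr11:88047373-88053755, plus strand), had values of 175, 212, 185 and 215 in KO and 234, 257, 243 and 249 in WT. The KO libraries numbered 2 and 4 were higher than the other KO libraries but still below all WT libraries. The means were 197 ± 19.6 in KO and 246 ± 9.59 in WT (SD, n = 4 each), with a log2 fold change of -0.32 (SE 0.0723, adjusted p = 0.00602 by limma).

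Srsf3 encodes the smallest SR protein, which also couples splicing to mRNA export (chr17:29032628-29043373, plus strand). It had 205, 204, 199 and 203 in KO and 250, 254, 269 and 236 in WT. The 4 KO values were nearly equal and all lay below the WT values. The log2 fold change was -0.31 (SE 0.0501, adjusted p = 0.000971 by limma). Reads of Srsf3 could be split with near-identical copies: Gm9761 had 8.47 ± 1.89 in KO and 10.4 ± 1.65 in WT and Gm12355 2.31 ± 0.644 in KO and 3.12 ± 0.827 in WT (SD, n = 4 each).

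Srsf4, an SR protein with a long arginine-serine domain (chr4:131873617-131901706, plus strand), had 51.5, 45.7, 48.3 and 47.1 in KO and 59.9, 57.1, 55.1 and 61.7 in WT, a log2 fold change of -0.28 (adjusted p = 0.00525 by limma). Srsf9, a small SR protein related to Srsf1 (chr5:115327177-115333080, plus strand), had 52.8, 48.9, 46.1 and 51.2 in KO and 56.7, 62.1, 60.3 and 59.6 in WT, a log2 fold change of -0.26 (adjusted p = 0.00697 by limma). Neither gene showed overlap between the genotypes. Srsf4 overlaps Gm12992 on the opposite strand by 1532 bases, a transcript with 3.69 ± 0.605 in KO and 3.46 ± 1.62 in WT, and the strand setting of the counting is not given in the sources used here.

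In the fit without the block the other 6 SR protein genes did not pass; Srsf2 passed without both libraries numbered 4 (adjusted p = 0.0294 by limma) and without KO 1. Srsf2, known as a component of nuclear speckles, had 226, 210, 213 and 175 in KO and 240, 236, 250 and 219 in WT (log2 fold change -0.20, adjusted p = 0.0732 by limma, and 0.0111 with the block). Srsf5 had 360, 329, 397 and 216 in KO and 392, 376, 411 and 301 in WT. In both genotypes its library numbered 4 was the lowest, and its log2 fold change of -0.21 had an adjusted p of 0.38 by limma without the block and 0.0358 with it. Srsf10, which can act as a splicing repressor, had -0.16 (0.222 without the block and 0.0187 with it, limma adjusted p). Srsf7 (-0.14), Srsf11 (-0.10) and Srsf6 (-0.06) did not pass in either fit. The annotation (GENCODE M21) lists a transcript subject to nonsense-mediated decay for 9 of the 10 Srsf genes and for 24 of the 50 members, and values summed over a gene do not separate these from coding transcripts.

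**Figure D3:**
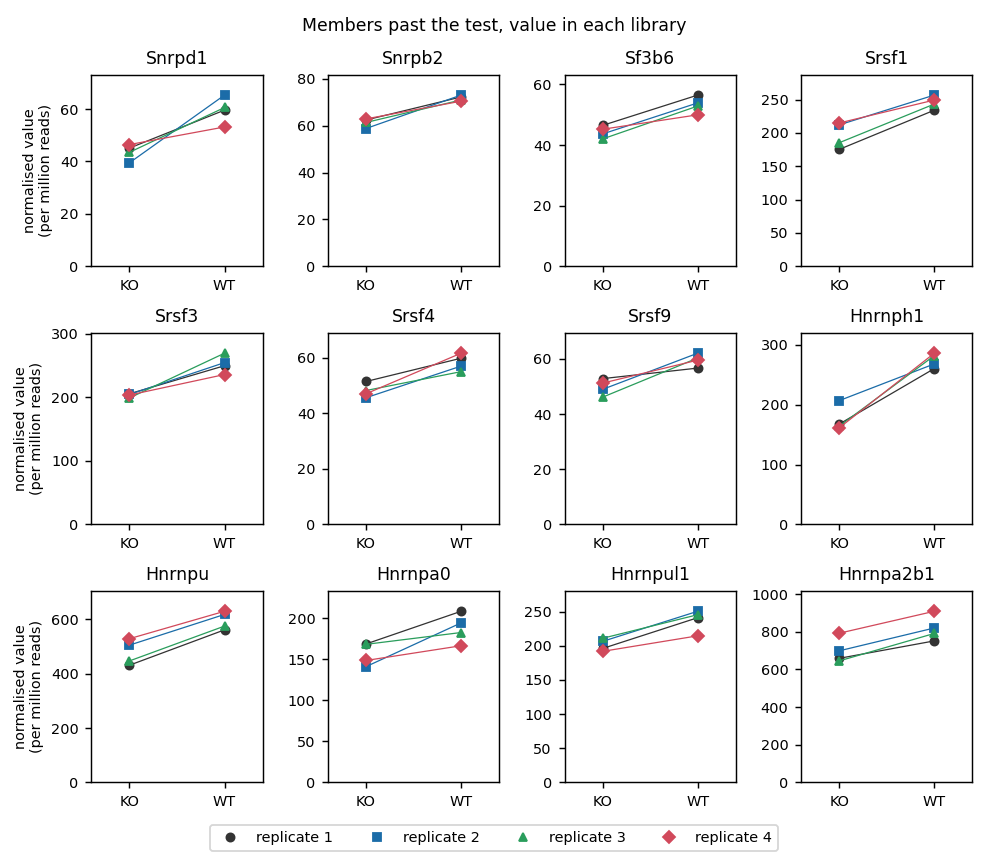
Normalised value (vertical axis, starting at 0) of the 12 lower members in each library, KO left and WT right, with lines joining libraries of the same replicate number. All lines run upward from KO to WT, and the genotypes overlap only for Hnrnpa0 and Hnrnpa2b1.

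Of the 20 hnRNP genes 5 were lower in KO without the block (25%, against 20.0% of all genes). With the block 13 were lower (65%, against 24.3%) and 1 was higher (5%, against 22.4%). The farthest from 0 of all 50 members was Hnrnph1, whose product binds runs of G near exons and can enhance or silence them (chr11:50376990-50386528, plus strand). It had values of 168, 207, 164 and 161 in KO and 261, 268, 282 and 286 in WT. The KO library numbered 2 was higher than the other KO libraries, and all 4 lay below the WT libraries. The means were 175 ± 21.4 in KO and 274 ± 12 in WT (SD, n = 4 each), so KO stood at 63.8% of WT, with a log2 fold change of -0.65 (SE 0.0803, adjusted p = 0.000186 by limma). Among the relatives of Hnrnph1, Hnrnpf had -0.03, Hnrnph2 0.07 and Hnrnph3 0.22, and none passed without the block. Hnrnph3 had 24, 25.7, 24.1 and 27.3 in KO and 18.7, 21.7, 20.1 and 26.4 in WT, which overlap through the WT library numbered 4 (adjusted p = 0.12 by limma without the block and 0.0327 with it). Hnrnph3 also passed when WT 4 was left out.

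Hnrnpu encodes a large protein that binds RNA and chromatin (chr1:178321108-178337797, minus strand). Its values were 431, 505, 447 and 529 in KO and 562, 618, 575 and 630 in WT, without overlap. In both genotypes the libraries numbered 2 and 4 were the higher ones. The log2 fold change was -0.32 (SE 0.0746, adjusted p = 0.00736 by limma). Cox20, which overlaps Hnrnpu by 804 bases on the opposite strand, was also lower, with 6.43 ± 1.22 in KO and 9.51 ± 0.695 in WT (log2 fold change -0.51, adjusted p = 0.00918 by limma).

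Hnrnpul1, a relative of Hnrnpu (chr7:25721165-25754757, minus strand), had 196, 206, 211 and 192 in KO and 241, 250, 245 and 214 in WT, a log2 fold change of -0.24 without overlap (adjusted p = 0.0115 by limma). Hnrnpul2, another relative, had -0.18 and did not pass without the block (adjusted p = 0.105 by limma, and 0.0103 with it). Hnrnpa0, which binds AU-rich elements of inflammatory mRNAs (chr13:58125879-58128556, minus strand), had 169, 141, 168 and 149 in KO and 209, 195, 183 and 167 in WT. The highest KO value lay above the lowest WT value, and the log2 fold change was -0.26 (SE 0.084, adjusted p = 0.0333 by limma). The call on Hnrnpa0 was lost without KO 2, KO 4, WT 1, WT 2 or WT 3 and without the variance trend, with adjusted p up to 0.089 over all alternatives.

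Hnrnpa2b1, an abundant A/B-type hnRNP protein (chr6:51460932-51469894, minus strand), had 659, 699, 645 and 792 in KO and 751, 820, 791 and 909 in WT. The library numbered 4 was the highest in each genotype, and KO 4 lay above WT 1 and WT 3. The log2 fold change was -0.23 (SE 0.0802, adjusted p = 0.0477 by limma). Its call was lost when KO 1, KO 2, KO 3, WT 2, WT 3 or WT 4 was left out, after median centring and without the variance trend, with adjusted p up to 0.13 over all alternatives. Without KO 2, WT 2 or WT 3, 3 Hnrnp genes were lower. Without WT 4, 10 of the 20 were lower and 1 was higher, against 19.3% and 18.2% of all genes.

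Several hnRNP genes differed as much as the called ones but varied more between libraries. Hnrnpd (AUF1), which binds AU-rich elements and speeds or slows mRNA decay, had 143, 138, 156 and 93.2 in KO and 189, 189, 187 and 130 in WT. Its close relative Hnrnpdl had 125, 114, 126 and 73.3 in KO and 169, 147, 158 and 105 in WT. For both genes the library numbered 4 was far below the others of its genotype, and KO was below WT in all 4 same-numbered pairs. The log2 fold change was -0.40 for Hnrnpd (adjusted p = 0.0963 by limma, and 0.000359 with the block). For Hnrnpdl it was -0.41 (adjusted p = 0.128 by limma, and 0.000263 with the block).

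Hnrnpm, which binds GU-rich RNA, showed the opposite pattern between libraries, with 189, 199, 192 and 266 in KO and 227, 244, 237 and 322 in WT. The libraries numbered 4 were the highest, and KO was again below WT in all 4 pairs (log2 fold change -0.28, adjusted p = 0.126 by limma, and 0.000716 with the block). Hnrnpm shares 1149 identical bases with March2, which overlaps it on the same strand and had 45.4 ± 2.73 in KO and 48.9 ± 3.49 in WT. Reads of these genes may be split between them. Hnrnpa1, a well known repressor of exon inclusion, had 251, 242, 253 and 209 in KO and 312, 334, 311 and 227 in WT. Both libraries numbered 4 were the lowest of their genotype (log2 fold change -0.30, adjusted p = 0.0697 by limma, and 0.00347 with the block). A near-identical pseudogene of Hnrnpa1, Gm10052, had 40.7 ± 12.5 in KO and 63.7 ± 16.5 in WT (SD, n = 4 each), so reads of the pair may be split between them.

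Hnrnpl, which binds CA repeats, had -0.22 (adjusted p = 0.0552 by limma, and 0.00455 with the block). Hnrnpr had -0.16 and Hnrnpa3 -0.13. Both passed with the block and not in the fit without it, and Hnrnpr also passed without both libraries numbered 4 (adjusted p = 0.0333 by limma). For Hnrnpa3, reads may be split with the pseudogene Gm5641, which was lower in KO, with 123 ± 18.8 in KO and 170 ± 5.23 in WT (log2 fold change -0.48, adjusted p = 0.00375 by limma). Near-identical copies among the measured genes were found for 5 members, not counting the overlap of Hnrnpm with March2. When members were summed with these copies, 13 were lower in KO, the added one being Hnrnpa3. Hnrnpll (-0.12), Hnrnpk (-0.12), Hnrnpc (-0.04) and Hnrnpab (0.03) passed neither with nor without the block. Hnrnpk passed after quantile normalisation, with library quality weights and without WT 4.

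For the 38 members that did not pass, the 95% intervals of the log2 fold change reached from -0.84 to 0.45. The interval lay within 0.5 of 0 for 33 of them and within 0.3 for 23, and for the other 5 it reached beyond 0.5.

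Libraries of 1 genotype differed from each other in a patterned way. The library numbered 4 lay below the other 3 libraries in both genotypes for 11 members (Hnrnpa1, Hnrnpa3, Hnrnpd, Hnrnpdl, Hnrnpk, Hnrnpl, Hnrnpr, Hnrnpul1, Srsf2, Srsf5 and Srsf6). It lay above the other 3 in both genotypes for another 11 (Hnrnpa2b1, Hnrnpc, Hnrnpf, Hnrnph2, Hnrnph3, Hnrnpm, Hnrnpu, Hnrnpul2, Snrpa1, Srsf7 and Srsf10). Together these are 44% of the members, against 35.2% of all genes tested. For number 1 the share was 26% of members, against 17.4% of all genes, for number 2 it was 0%, against 8.87%, and for number 3 it was 8%, against 15.9%. Members of the Hnrnp and of the Srsf prefix occur on both sides. What the number marks is not given in the labels.

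**Figure D4:**
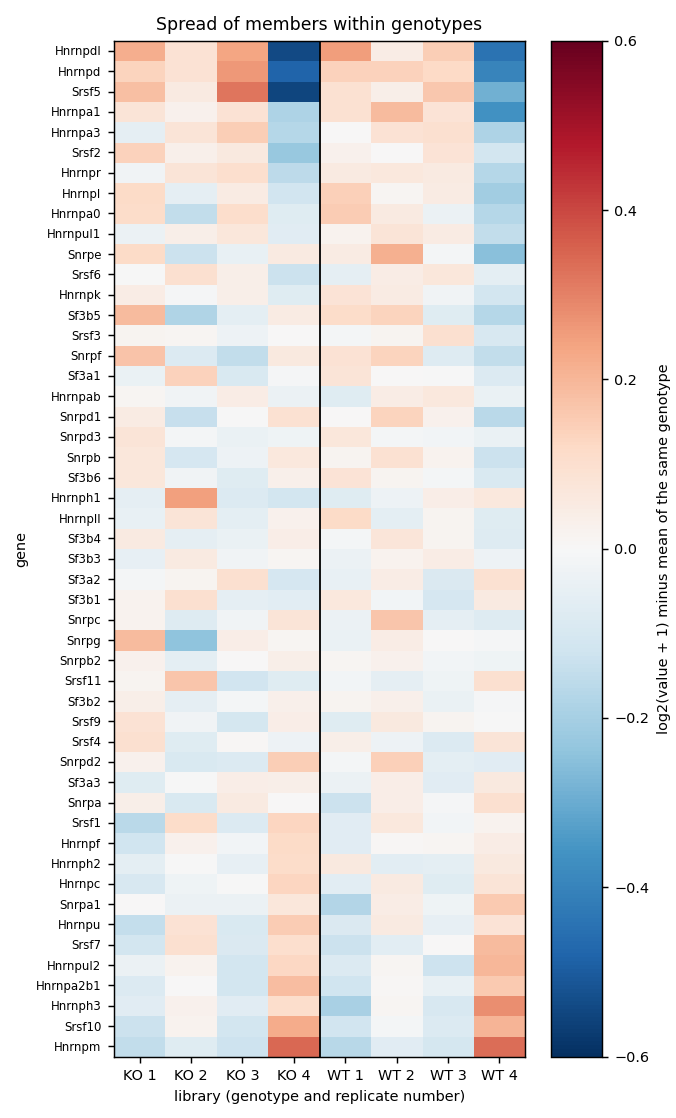
Deviation of each member (rows) from the mean of its genotype, on the log2(value + 1) scale, in the 4 KO libraries (left) and the 4 WT libraries (right). The columns of KO 4 and WT 4 hold the strongest colours, low for Hnrnpdl, Hnrnpd and Srsf5 at the top and high for Hnrnpm at the bottom.

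Genes of the splicing pathway with other names were counted in the same way. In 8 lists with 164 genes, all of them tested, 32 were lower in KO (19.5%, against 20.0% of all genes) and 11 were higher (6.71%, against 18.7%); their median was -0.08 (log2). Without KO 3 or WT 3, 5 of them were higher, without WT 1 there were 6 and without WT 2 there were 7. With the replicate block 52 were lower (31.7%, against 24.3% of all genes) and 13 higher (7.93%, against 22.4%). These shares of all genes also stand beside the counts of each list that follow. The list of other snRNP proteins had 5 of 27 lower and 2 higher. The U5 protein gene Snrnp40 averaged 22.5 ± 1.87 in KO and 31.1 ± 0.692 in WT (log2 fold change -0.45), and Lsm5, of the ring on U6 snRNA, 11.1 ± 0.835 in KO and 15.4 ± 1.32 in WT (-0.44). In the other direction, Txnl4a of the U5 particle averaged 30.2 ± 3.54 in KO and 21.9 ± 3.57 in WT (0.45), and Snrnp27 33.6 ± 1.6 in KO and 28.9 ± 1.92 in WT (0.21).

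Of 14 genes for branch-site and 3′ splice site recognition 2 were lower and 2 higher, and with the block 4 and 3. Ddx46, the helicase that remodels U2 at the branch site, averaged 167 ± 9.24 in KO and 286 ± 43.2 in WT (log2 fold change -0.77, SE 0.101, adjusted p = 0.000276 by limma), farther from 0 than any SF3A or SF3B member. U2af1, which reads the AG at the 3′ splice site, had -0.22, while Puf60 had 0.14 and Smndc1 0.16. Of 24 Prp19 complex and catalytic factors 6 were lower and 0 higher, among them the cyclophilin gene Ppil1 (-0.59) and Prpf18 (-0.30), which acts at a late step.

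The SMN complex loads the Sm ring onto snRNA. Of 16 genes of this complex or of other steps of snRNP assembly, 2 were lower (Snupn with -0.37 and Smn1 with -0.23) and 2 higher (Gemin5 with 0.43 and Strap with 0.12). Of 16 SR protein kinases and SR-related genes 2 were lower and 0 higher, and with the block 7 were lower (43.8%) and 0 higher: Clk3, a kinase that phosphorylates SR proteins, had -0.38 and Tnpo3, which imports them into the nucleus, had -0.17. Of 15 genes of the exon junction complex and nonsense-mediated decay 5 were lower and 0 higher, among them the paralogues Magoh (-0.31) and Magohb (-0.44). Of 17 genes for mRNA 3′ end processing 4 were lower and 1 higher, with -0.25 for Cstf2, -0.24 for Cpsf4 and 0.26 for the scaffold gene Sympk.

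Of 35 other RNA-binding splicing regulators 6 were lower and 4 higher, and with the block 15 were lower (42.9%) and 5 higher. Mbnl3 averaged 8.71 ± 1.22 in KO and 18.4 ± 1.27 in WT (log2 fold change -1.01, SE 0.103, adjusted p = 6.3e-05 by limma), and its paralogue Mbnl2 199 ± 21 in KO and 146 ± 2.94 in WT (0.44). Celf2, which competes with Mbnl proteins on some exons, had -0.37 and the poly(C)-binding protein gene Pcbp2 0.36. The calls on U2af1, Puf60, Smndc1, Snrnp27, Smn1, Snupn, Strap and Tnpo3 were each lost when at least 1 library was left out.

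Other genes moved with genotype beside the members. All 37 cell cycle genes of the list were lower in KO, their median being -1.38 (log2), and they had a summed value of 821.2 to 984.5 in KO and 1657 to 2635 in WT. Mki67, a marker of dividing cells, averaged 67.4 ± 9.25 in KO and 223 ± 44 in WT, and Ncapd2, of the condensin complex, 23.6 ± 2.23 in KO and 70.7 ± 13.3 in WT. Of the 10 markers of interstitial macrophages and monocytes 9 were in the table, and 8 of these were higher in KO, with a summed value of 169.4 to 313.5 in KO and 55.72 to 87.79 in WT. Of the 12 alveolar macrophage markers 2 were higher and 4 lower. The lower ones were Ear1 (log2 fold change -2.81), Ear2 (-2.26), Siglecf (-1.365) and Krt79 (-1.08). The higher ones were Itgax (0.90) and Car4 (0.89). Of 7 dendritic cell markers tested 1 was higher and of 3 granulocyte markers tested 1 was higher and 1 lower. Summed values of lymphocyte markers were 0.4355 to 1.143 in KO and 0.7692 to 1.467 in WT, with 1 of 8 markers in the table. Of 8 markers of epithelium, endothelium and stroma 0 passed (93.99 to 146.8 in KO and 61.46 to 197.6 in WT). All 8 had log2 fold changes above 0 (0.21 to 0.54). WT 3 stood apart, with 75.9 for Sftpc and 32.2 for Cdh5, against 15.6 to 21.9 and 5.81 to 7.47 in the other WT libraries. For Scgb1a1 the highest WT value was in WT 4. The part of dividing cells or of other cell types in the members' differences was not tested.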

How the data were processed

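The values are a normalised signal per gene in each library, as the authors deposited it. Per the submitters' processing notes the tools were CASAVA 1.8.2, cutadapt 1.7.1, RSEM 1.3.1 and limma with GRCm38, and the strand setting of the counting is not given in the sources used here. Read from the values, each is a whole read number plus 0.5 over a scaled library size (whole for 100% of values at a tolerance of 0.01). Per the labels' protocols the library kit keeps strand.

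Values were tested as log2(value + 1) with limma 3.58.1 in R 4.3.3 (mean-variance trend, two-sided, Benjamini-Hochberg adjustment over 12163 genes that reached a value of 1 in 4 or more libraries, which left out 204 rows). Fold changes are on this scale, which understates low genes. The steps were tested on simulated data. Coordinates and transcript types come from GENCODE M21 (GRCm38), and copies were searched with BLAST+ 2.17.0 (at least 95% identity over 200 bases).

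The members, gene lists and tests were chosen with earlier results of these data known. Per prefix, up to 4 called members in each direction by fold change were named, and per other list up to 2 genes in each direction by adjusted p, with Tfam; Hnrnpa2b1 and members named with values in each library but not called were chosen after their values were seen, as were copies and overlapping genes. Over all genes, same-numbered libraries deviated together in every pair (0.286 to 0.431), so the numbers were taken to pair the libraries. Over the members alone this did not hold for every pair (-0.402 to 0.723). The pairing is read from the data.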

Additional observations from a re-analysis of the deposited data

Results flagged for a closer look

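In groups of 4 libraries, 1 library lay far from the other 3 for 8 of 156 groups searched. This share is near the 1 in 20 that chance gives. Among the members, Hnrnpd had 130 in WT 4, against 187 to 189 in the other WT libraries, and Hnrnpr had 82.5 in WT 4, against 96.4 to 97.1. Hnrnpm had 266 in KO 4, against 189 to 199 in the other KO libraries, and Hnrnph1 had 207 in KO 2, against 161 to 168. Snrpc, which encodes a U1 protein, had 32.2 in WT 2, against 27 to 27.8. Among other splicing genes, Snrnp27 had 31.2 in KO 2, against 34 to 34.5, Smn1 had 15.2 in KO 2, against 17.5 to 17.9, and Tnpo3 had 98 in WT 4, against 92.4 to 93.2.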

How the results depend on the processing

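None of 23 alternatives turned the direction of the 12 called members, of the other called splicing genes named or of Tfam. Of the 38 members not called, 8 changed sign in at least 1 alternative (Snrpa, Snrpc, Snrpf, Sf3b3, Sf3b4, Sf3b5, Hnrnpab and Hnrnpf), all within 0.0601 log2 of 0 in the report's values. Hnrnph1 was called in all 23, and the other called Snrp, Sf3b and Srsf members, with Hnrnpu, in all except a minimum log2 fold change of 0.5. Fitting the replicate block gave 23 lower members and 1 higher, and moved Srsf to 7 lower, Hnrnp to 13 lower and 1 higher, and the 8 other lists to 52 lower; it lost 0 of the 12 member calls. Library quality weights gave 22 of 50 members lower, a larger share than the 24.2% of all genes. They gave 1 higher, a smaller share than the 22.1% of all genes (Hnrnp 13 lower and 1 higher). The members gained with these weights were Snrpe, Srsf2, Hnrnpa1, Hnrnpd, Hnrnpdl, Hnrnpk, Hnrnpl, Hnrnpm, Hnrnpr and Hnrnpul2, all lower, and Hnrnph3, which was higher. Without both libraries numbered 4 there were 20 lower and 1 higher (Hnrnp 11 and 1), against 21.1% and 19.8% of all genes. With the block in addition there were 22 and 1 (Hnrnp 12 and 1). The share of all genes with that block is not given here, so those 22 and 1 are a description only. In both of these settings 25 of 50 members did not overlap with KO lower, a larger share than the 27.6% of all genes. With KO higher it was 1 member, a smaller share than the 25.4% of all genes. Median centring gave 1 member without overlap higher in KO. With no variance trend Hnrnp had 3 lower, and the other lists 7 higher. Quantile normalisation gave 2 lower Sf3b genes. At adjusted p under 0.01 Hnrnp had 2 lower, the other lists 3 higher and 16 lower, and all genes 1513 higher and 1543 lower. At a log2 fold change of at least 0.5 there was 1 lower member, of Hnrnp (1), with 0 for Snrp, Sf3b and Srsf, 0 higher and 4 lower for the other lists, and 1139 higher and 1038 lower for all genes.

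Leaving out each library in turn gave 10 to 18 lower members, the 18 without WT 4, and 0 to 1 higher. It gave 3 to 10 lower and 0 to 1 higher Hnrnp genes, and 5 to 9 higher genes of the other lists. It also gave 11 to 21 members without overlap lower in KO and 0 to 1 higher. Shares of all genes beside these counts are given above for WT 4 only, so the other counts describe their settings only. Without WT 4 the members gained were Snrpe, Hnrnpa1, Hnrnpd, Hnrnpdl, Hnrnpk, Hnrnpl and Hnrnpr, all lower, and Hnrnph3, which was higher. Without KO 1 they were Srsf2 and Hnrnpl, both lower. Voom weights, sums with copies and the settings without both libraries numbered 4 were chosen after seeing the data. The cause of these shifts was not tested. There were 4 pools per genotype, and the lowest read number of a member was 211. Over all genes together, replicate libraries differed by more than counting noise (chi-square per degree of freedom of 11.2 to 39.9). The part of counting noise in the spread of single members was not tested, and it is larger for members with few reads. Isoforms, protein and splicing itself were not measured.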
